A study of Homo sapiens with 4 samples.

Results

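The ERBB family was followed through 10 genes in HCT116 cells, a human colorectal carcinoma line: the ligands AREG, EREG, TGFA, HBEGF, EPGN and BTC, the receptors EGFR, ERBB2 and ERBB3, and the feedback inhibitor ERRFI1. They were chosen by name, as the receptor, ligand and feedback genes of the pathway, out of 58735 Ensembl gene identifiers measured. RNA sequencing covered 4 libraries of HCT116 cells collected 48 h after transfection, 2 given control siRNA and 2 labelled KIF26B siRNA, directed at a kinesin gene. All cells were of 1 established line, carried no other treatment in the labels, and were grown with fetal bovine serum. Which siRNA against KIF26B was used in each library is not given in the sources used here. The paper used 2 such siRNAs in HCT116 cells. The column headings carry KD1 and KD2, without saying whether these were different siRNAs. The labels do not say whether libraries of a group came from separate cultures. The p-values below therefore measure the spread between these libraries, which may be technical or, in the group labelled KIF26B siRNA, between siRNAs.

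ERBB receptors are tyrosine kinases on the cell surface. EGFR binds amphiregulin, epiregulin, TGF-alpha, HB-EGF, betacellulin and epigen, which are made as membrane-anchored precursors and released by ADAM proteases. ERBB2 has no known ligand of its own, and ERBB3, which has little kinase activity, binds neuregulins and signals in pairs with other receptors. Active receptors signal through RAS and ERK and through PI3K and AKT, and ERK signalling in turn induces inhibitors such as ERRFI1, which binds the EGFR kinase domain. In colorectal tumours, AREG and EREG levels are known as markers studied for response to EGFR antibodies.

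Values are FPKM, fragments scaled by the exon length of a gene and by the size of the library, so that levels can be compared between genes. Fold changes are KIF26B siRNA over control siRNA by label, on the scale of log2(FPKM + 1), which understates the change of low genes. They were tested with limma over 14523 genes, those averaging 1 FPKM or more. In bulk RNA such as this, fewer cells of a kind and less RNA per cell cannot be told apart. Of the 10 genes, 9 passed this filter and EPGN did not. The totals by which the libraries had been scaled, inferred from the values, were 18068934 to 24673739. Whole reads recovered from the values are given where counting error matters, as the fewest that the values allow where the exon length used by the authors was not matched. They summed to 18775789 to 24314615 per library, below the inferred total in 3 libraries and above it in KIF26B siRNA replicate 2 (18775789 against 18068934), so those totals need not be numbers of fragments. The control siRNA libraries lay closer together (median absolute difference 0.073 on the log2 scale over the genes tested) than the libraries labelled KIF26B siRNA (0.28). The targeted gene itself, KIF26B, was at 0.110 and 0.205 FPKM in the controls and 0.140 and 0.0307 FPKM in the libraries labelled KIF26B siRNA replicates 1 and 2, from 31, 73, 43 and 8 reads. It was therefore not lower than both controls in the library labelled replicate 1, and every direction below compares libraries by label only. The epithelial markers EPCAM, KRT8, KRT18, CDH1, KRT19 and CLDN4 lay between 17.7 and 951.3 FPKM in all libraries, whereas PTPRC, CD3E, VWF, COL3A1 and DCN, markers of other cell types, stayed at or below 0.201 FPKM. COL1A1, a fibroblast marker, was at 4.74 to 8.69 FPKM, and made up most of the summed level of these 6 markers, which was 7.46 and 7.16 FPKM in the controls and 4.90 and 8.77 FPKM in the other group. Mitochondrial transcripts took 32.8% of all FPKM in the library labelled KIF26B siRNA replicate 1 and 25.37% to 26.03% in the other libraries. The part of these differences in the results below was not tested.

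The promoters of 3 genes are shown, since EREG and EGFR were the genes of the family with an unadjusted P below 0.05 and AREG is the neighbour of EREG on chromosome 4. Each sequence is the 250 bases before the RefSeq start site on GRCh38.p14. Capitals mark matches, on either strand, to a cyclic AMP response element (CRE), an ETS core, a TEAD core, an AP-1 site or a TATA box, whose letters are given after the sequences.
AREG (chr4:74444886-74445135, plus strand): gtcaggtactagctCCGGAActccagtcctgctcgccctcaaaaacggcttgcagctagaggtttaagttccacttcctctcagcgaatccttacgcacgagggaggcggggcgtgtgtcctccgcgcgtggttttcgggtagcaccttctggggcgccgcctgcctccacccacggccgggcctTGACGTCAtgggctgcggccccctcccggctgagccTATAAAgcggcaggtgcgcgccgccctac
EREG (chr4:74364895-74365144, plus strand): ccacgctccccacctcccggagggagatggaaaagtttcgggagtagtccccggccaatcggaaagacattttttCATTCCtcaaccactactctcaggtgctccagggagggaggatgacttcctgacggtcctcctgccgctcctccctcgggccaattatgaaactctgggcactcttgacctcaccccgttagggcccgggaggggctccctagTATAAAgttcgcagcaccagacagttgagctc
EGFR (chr7:55018767-55019016, plus strand): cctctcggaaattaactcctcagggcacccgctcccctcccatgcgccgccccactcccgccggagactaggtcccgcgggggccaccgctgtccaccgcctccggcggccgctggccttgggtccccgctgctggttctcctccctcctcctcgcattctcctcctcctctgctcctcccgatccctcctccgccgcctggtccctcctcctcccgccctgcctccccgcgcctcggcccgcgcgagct
Windows of 300 bases, from 250 before to 50 after the start, were searched on both strands in all 35116 RefSeq promoters of the table. The CRE was searched as TGACGTCA and was held by 1.85% of all promoters. The AREG window held it at position −65 from the start. The TATA box, searched as TATAAA, was held by 11.5% of all promoters, and stood at −29 in AREG, −32 in EREG and −29 in EPGN, so that 3 of the 4 ligand genes on chromosome 4 held it. The second EGFR promoter, not printed here, held it at −146 and −36. The ETS core, searched as CCGGAA (17.2% of all promoters), stood at −236 in AREG, −208 in the second TGFA promoter, and −25 and −14 in ERBB2. The TEAD core was searched as GGAATG (14.0% of all promoters) and stood at −175 in EREG and at −114 in the second EGFR promoter. The window of the first EGFR promoter held none of these. The GC box, searched as GGGCGG and not marked in capitals (44.95% of all promoters), stood there at −204, −36 and 44, the last of them past the bases printed. It also stood at −9 in AREG, and TGFA, HBEGF, BTC and ERRFI1 held it too. The AP-1 site, searched as TGANTCA (7.71% of all promoters), was in none of the 3 windows printed. It stood at −232 and −136 in the second EGFR promoter and at −222 in ERBB2. A match is a match of letters only, and promoters were found for 9 of the 10 genes, the exception being ERBB3.

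The levels of the family differed widely, and some neighbours in their order could not be told apart by their ranges. ERRFI1 (mean of 400.004 FPKM over the 4 libraries) and AREG (392.6 FPKM) stood at the top, ranks 69 and 71 of the genes tested, and their ranges overlapped. EREG followed at 123.3 FPKM, rank 233, with a range that met neither AREG above nor EGFR below. The ranges of EGFR (22.5 FPKM) and TGFA (22.4 FPKM) overlapped, as did those of ERBB3 (6.16 FPKM) and HBEGF (6.14 FPKM). ERBB2 (9.03 FPKM) stood between these pairs by its mean. Within each library the pairs were apart, and their order turned by label. EGFR was above TGFA, HBEGF above ERBB3 and ERRFI1 above AREG in both controls. In both libraries labelled KIF26B siRNA each of these orders was the reverse. Some gaps were small, as between ERRFI1 (350.9 FPKM) and AREG (357.1 FPKM) in replicate 1 of that group. HBEGF rested on 135 to 260 reads per library, the fewest its values allow. Whether these gaps exceed counting error was not tested. The range of ERBB2 (6.61 to 11.1 FPKM) overlapped that of HBEGF (4.95 to 6.98 FPKM). BTC was low at 1.495 FPKM, and EPGN was near the limit at 0.140 FPKM. Among the ligands, AREG and EREG together made up 93.6% to 95.5% of the summed ligand FPKM in every library.

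**Figure D1:**
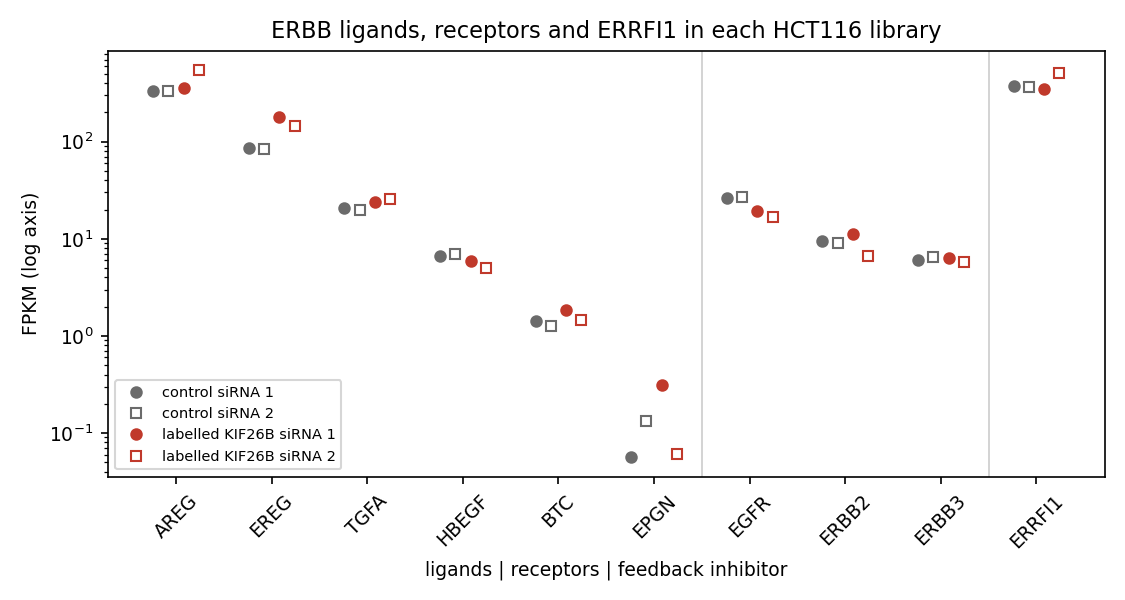
FPKM of the 10 genes in each library (vertical log axis), with ligands, receptors and the feedback inhibitor ERRFI1 separated by grey lines; grey symbols are control siRNA, red symbols the libraries labelled KIF26B siRNA, filled circles replicate 1 and open squares replicate 2. Both red symbols of EREG lie above both grey ones (143.5 and 180.2 against 84.3 and 85.3 FPKM), both of EGFR lie below, and AREG, ERBB2 and ERRFI1 have red symbols far apart.

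At the thresholds of the study (unadjusted P under 0.05 with a log2 fold change past 1 or −1), none of the 9 genes tested passed in either direction, beside 0.606% of all genes tested that were lower and 0.813% that were higher. With an unadjusted P below 0.05 alone, 1 of the 9 was higher (EREG) and 1 was lower (EGFR), beside 7.74% higher and 8.68% lower among all genes tested. After Benjamini–Hochberg adjustment 0 genes of the family passed 0.05, and 0.0% of all genes tested passed in either direction, and the smallest adjusted p over all genes from limma was 0.242. Without the library labelled KIF26B siRNA replicate 1, the one of its group in which KIF26B was not below both controls, 4 members had an adjusted p under 0.05 from limma (AREG, EREG and EGFR at 0.0463 and ERRFI1 at 0.0486), beside 8.59% of all genes tested that were then lower and 8.68% that were higher. That fit takes the spread from the close controls alone. Without replicate 2 instead, the smallest adjusted p of a member was 0.0606 (EREG). By position alone, 4 of the 10 genes were higher in both libraries labelled KIF26B siRNA than in both controls, 2 were lower and 4 overlapped, whereas 24.9% and 27.8% of all genes tested were higher and lower in this way. The median log2 fold change of the 9 genes was 0.18, against −0.01 for all genes tested.

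EREG encodes epiregulin, a ligand of EGFR and ERBB4. EREG (ENSG00000124882; GRCh38.p14 chr4:74365145-74388749, plus strand) lay at 85.3 and 84.3 FPKM in the controls and at 180.2 and 143.5 FPKM in the libraries labelled KIF26B siRNA replicates 1 and 2. Both of the latter were above both controls, by far more than the difference between controls. The group means were 84.8 ± 0.724 and 161.8 ± 25.9 FPKM (SD, n = 2 each), a 1.91-fold difference. The log2 fold change was 0.91 with a standard error of 0.16 (limma, unadjusted P = 0.00439 and adjusted p = 0.242). The gene was deeply read, with 9575, 11891, 22003 and 14821 reads in the same order. Relative to both controls pooled, its read rate was 2.13 in replicate 1 (95% interval 2.09 to 2.17) and 1.69 in replicate 2 (1.66 to 1.73), where the intervals cover counting error only, here and below. The libraries labelled KIF26B siRNA thus differed from each other beyond counting error, although both lay on the same side of the controls. Without replicate 2 of that group the log2 fold change was 1.08, past the threshold of 1, and without replicate 1 it was 0.75.

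AREG encodes amphiregulin, the ligand with the highest level here. AREG (ENSG00000109321; chr4:74445136-74455005, plus strand) was at 333.9 and 334.2 FPKM in the controls, 357.1 FPKM in the library labelled KIF26B siRNA replicate 1 and 545.3 FPKM in replicate 2. The controls could hardly be told apart, and the excess in the other group came mainly from replicate 2. Relative to the pooled controls, the read rate was 1.07 (95% interval 1.05 to 1.09) in replicate 1 and 1.63 (1.60 to 1.67) in replicate 2. The means were 334.1 ± 0.252 and 451.2 ± 133.1 FPKM (SD, n = 2 each), and the log2 fold change was 0.40 with a standard error of 0.24 (limma, adjusted p = 0.463). The spread between the libraries labelled KIF26B siRNA was thus larger than the difference of the means. Without the library labelled KIF26B siRNA replicate 1, the log2 fold change was 0.71 with an unadjusted P of 0.00241 from limma, and without replicate 2 it was 0.096.

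AREG and EREG therefore did not move in step between the libraries labelled KIF26B siRNA. The ratio of AREG to EREG FPKM was 3.91 and 3.97 in the controls, 1.98 in replicate 1 and 3.801 in replicate 2. EREG made up 19.0% and 18.9% of the summed ligand FPKM in the controls, 31.7% in replicate 1 and 19.9% in replicate 2. In replicate 2, both genes were above the controls by a similar factor, and in replicate 1 the excess was mainly that of EREG.

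**Figure D2:**
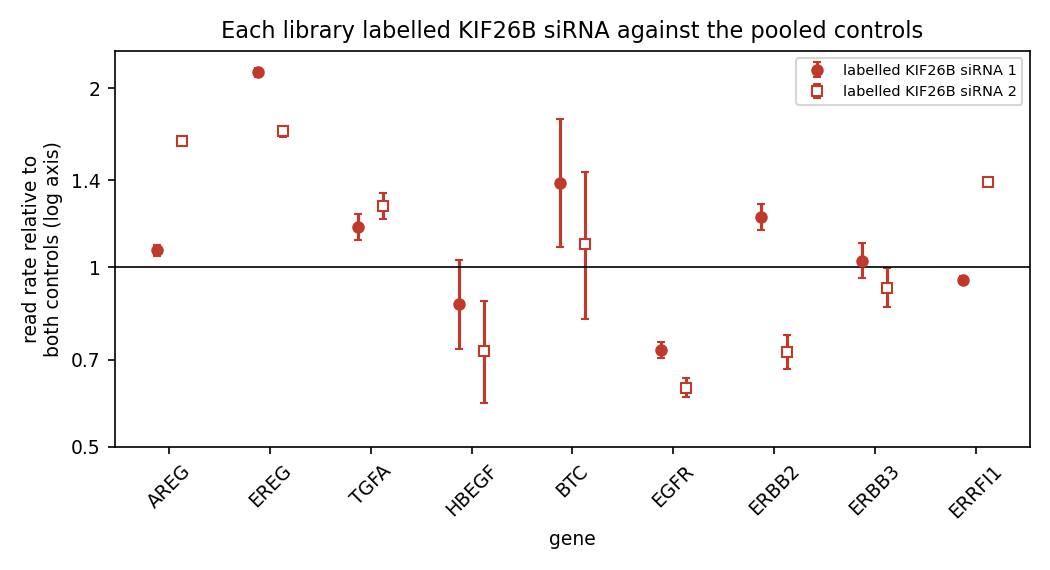
Read rate of each gene in the libraries labelled KIF26B siRNA replicate 1 (filled circles) and replicate 2 (open squares) relative to both control libraries pooled, on a log axis with 95% counting intervals (bars, often smaller than the symbol). EREG (2.13 and 1.69), EGFR (0.727 and 0.629), AREG, TGFA, HBEGF and BTC lie on one side of 1 in both libraries. ERBB2 (1.22 and 0.722), ERRFI1 (0.954 and 1.39) and ERBB3 (1.03 and 0.925) lie on opposite sides. The intervals of HBEGF in replicate 1, BTC in replicate 2 and ERBB3 in replicate 1 include 1.

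TGFA (ENSG00000163235; chr2:70447284-70553826, minus strand) encodes transforming growth factor alpha, an EGFR ligand. It was at 20.5 and 19.97 FPKM in the controls and at 23.6 and 25.6 FPKM in the libraries labelled KIF26B siRNA replicates 1 and 2. Both of the latter were above both controls, by a small margin. The log2 fold change was 0.27 with a standard error of 0.12 (limma, unadjusted P = 0.079 and adjusted p = 0.348). The unadjusted P was 0.0314 without a filter on low genes and 0.0195 without the library labelled KIF26B siRNA replicate 1. HBEGF (ENSG00000113070; chr5:140332843-140346603, minus strand), which encodes the heparin-binding ligand, was at 6.68 and 6.98 FPKM in the controls and at 5.96 and 4.95 FPKM in the other group. It was the only ligand lower in both libraries labelled KIF26B siRNA, with 198, 260, 192 and 135 reads, a log2 fold change of −0.28 (standard error 0.13) and an adjusted p of 0.384 from limma. In replicate 1 its read rate, 0.869 of the controls, had a 95% interval of 0.731 to 1.03. This interval is the widest the values allow, since the reads fit an exon length of 1509 bases against 2990 annotated and may be a multiple of those given. Without that library the log2 fold change was −0.40, with an unadjusted P of 0.0137 from limma, and without replicate 2 it was −0.17, with an unadjusted P of 0.0939 from limma.

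BTC and EPGN were at the low end. BTC (ENSG00000174808; chr4:74744759-74794523, minus strand), which encodes betacellulin, was at 1.43 and 1.252 FPKM in the controls and 1.85 and 1.45 FPKM in replicates 1 and 2 of the other group, from 74 to 111 reads per library. Both of the latter were above both controls, in replicate 2 by little, and the log2 fold change was 0.18 (adjusted p = 0.561 from limma). It was 0.069 without the library labelled KIF26B siRNA replicate 1, 0.28 without replicate 2 and 0.31 with limma-voom on the recovered reads. EPGN (ENSG00000182585; chr4:74308470-74316789, plus strand), which encodes epigen, was at 0.0562 and 0.134 FPKM in the controls and 0.310 and 0.0610 FPKM in the other group, from 1, 3, 6 and 1 reads. These are the fewest reads that its values allow, at an exon length of 907 bases against 3299 annotated. The groups overlapped. At those reads its rate ratios to the pooled controls were 3.11 (95% interval 0.738 to 15.0) and 0.613 (0.0124 to 6.19), and more reads would narrow both intervals.

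EGFR was the gene with the lowest fold change of the family. EGFR (ENSG00000146648; chr7:55019017-55211628, plus strand) was at 26.6 and 27.0 FPKM in the controls and at 19.5 and 16.8 FPKM in the libraries labelled KIF26B siRNA replicates 1 and 2. The groups did not overlap, and the gap between them was wider than the difference within either. The means were 26.8 ± 0.244 and 18.2 ± 1.86 FPKM (SD, n = 2 each), a change of −32.2%. The log2 fold change was −0.54 with a standard error of 0.13 (limma, unadjusted P = 0.0136 and adjusted p = 0.248). When 1 control library was left out, the log2 fold change kept its size (−0.55 and −0.53 without replicate 1 and 2), while the unadjusted P from limma was 0.125 and 0.135. With 6540, 8327, 5209 and 3812 reads, the rate relative to the pooled controls was 0.727 in replicate 1 (95% interval 0.704 to 0.750) and 0.629 in replicate 2 (0.607 to 0.652). The exons of EGFR share 186 bases with EGFR-AS1 on the opposite strand, which lay at 0.454 to 0.780 FPKM.

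ERBB2 (ENSG00000141736; chr17:39688094-39728658, plus strand), the receptor that pairs with the other family members, showed opposite values in the libraries labelled KIF26B siRNA. It was at 9.43 and 8.95 FPKM in the controls, 11.1 FPKM in replicate 1 and 6.61 FPKM in replicate 2, so that the controls lay between the other libraries. The read rates were 1.22 (95% interval 1.16 to 1.28) and 0.722 (0.677 to 0.769) of the pooled controls, and the log2 fold change was −0.08 with a standard error of 0.26 (limma, adjusted p = 0.891). Without replicate 1 it was −0.42 (unadjusted P = 0.0135), and without replicate 2 it was 0.25 (unadjusted P = 0.0452, both from limma). The exons of ERBB2 share 571 bases with MIEN1 and 144 bases with PGAP3 on the opposite strand. Reads there cannot be assigned to 1 gene, since use of the strand in counting is not stated. PGAP3 was at 2.46 to 3.12 FPKM. MIEN1 was at 7.42 and 7.57 FPKM in the controls and 9.48 and 10.6 FPKM in replicates 1 and 2 of the other group. Their part in the values of ERBB2 was not tested. ERBB3 (ENSG00000065361; chr12:56080108-56103505, plus strand), the neuregulin receptor, was at 6.04, 6.42, 6.42 and 5.78 FPKM in the same order. The groups overlapped, and the log2 fold change was −0.03 with a standard error of 0.12 (limma, adjusted p = 0.921).

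ERRFI1 (ENSG00000116285; chr1:8011727-8026309, minus strand), also known as MIG6, is induced by ERK signalling and restrains EGFR. It was at 371.9 and 364.6 FPKM in the controls, 350.9 FPKM in replicate 1 and 512.6 FPKM in replicate 2 of the libraries labelled KIF26B siRNA. The high value was thus that of replicate 2 alone, whereas AREG was slightly above both controls in replicate 1 as well. With 30562 to 38769 reads per library, the read rate was 0.954 (95% interval 0.941 to 0.967) of the controls in replicate 1 and 1.39 (1.38 to 1.41) in replicate 2. The log2 fold change was 0.20 with a standard error of 0.22 (limma, adjusted p = 0.675), and it was 0.48 without replicate 1 (unadjusted P = 0.00715 from limma) and −0.070 without replicate 2. Its exons share 155 bases with ENSG00000284747 on the opposite strand, at 0.807 to 1.19 FPKM.

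Summed over members, the balance of ligand to receptor transcripts also differed by library. The summed ligand FPKM was 447.9 and 446.9 in the controls and 569.0 and 720.9 in the libraries labelled KIF26B siRNA replicates 1 and 2. The summed receptor FPKM was 42.1, 42.3, 37.03 and 29.2 in the same order. The ratio of both sums was 10.6 and 10.6 in the controls, 15.4 in replicate 1 and 24.7 in replicate 2. EGFR made up 63.2% and 63.7% of the receptor sum in the controls, and 52.6% and 57.6% in the other group. AREG and EREG make up most of the ligand sum, and EGFR is the largest part of the receptor sum. ERBB2 also moved the receptor sum, at 11.1 FPKM in replicate 1 and 6.61 FPKM in replicate 2 of the group labelled KIF26B siRNA. No test was made of these sums.

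Of the 6 ligand genes, 4 lie in 1 stretch of chromosome 4, in the order EPGN, EREG, AREG and BTC, next to a group of chemokine genes. On GRCh38.p14, EREG ends 56.4 kb before AREG starts, EPGN lies 48.4 kb before EREG, and the nearer end of BTC, the 3′ end of a gene on the minus strand, is 289.8 kb past AREG. Despite this order, their levels differed widely, from 0.140 FPKM (EPGN) to 392.6 FPKM (AREG). MTHFD2L, a mitochondrial folate enzyme gene just before EPGN, was at 1.11 and 1.05 FPKM in the controls and 1.63 and 1.51 FPKM in the libraries labelled KIF26B siRNA (log2 fold change 0.30, adjusted p = 0.307 from limma). The next genes outward, CXCL2 and CXCL3, were below 1 FPKM in every library, and CXCL5, PPBP and PF4 were listed at 0. High levels in this stretch were therefore those of EREG and AREG.

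The genes whose 4 values ran most like those of EREG, by Euclidean distance between centred log2(FPKM + 1) values over the 4 libraries, were ZBTB45, KIF1C, EHF, TMEM141 and PRDX4, at distances of 0.050 to 0.11. Since they were chosen for likeness to EREG, their log2 fold changes (0.92 to 0.95) and the order of their values follow from the choice. EHF, which encodes an epithelial ETS factor, was at 6.81 and 6.36 FPKM in the controls and 15.8 and 11.8 FPKM in replicates 1 and 2 of the other group, the same order as in EREG. Among the family itself, TGFA was nearest to EREG (distance 0.72, rank 2030 of the genes tested), and AREG stood at 0.84 (rank 3731). With 4 libraries, such likeness is a description only.

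Other genes of ERBB signalling were read with a list of 68 genes in 8 role groups, of which 61 were tested. Among the tested genes, 10 were lower and 5 were higher at an unadjusted P below 0.05 (16.4% and 8.20% of the list), beside 8.68% and 7.74% of all genes tested, and 0 passed an adjusted p of 0.05 from limma. The median log2 fold change of the list was −0.22 against −0.01 for all genes tested, with 45 genes below 0 and 16 above. The counts moved with the libraries used. Without the library labelled KIF26B siRNA replicate 1 they were 26 and 9, beside 23.7% and 22.9% of all genes tested, and without replicate 2 they were 23 and 7, beside 22.4% and 17.5%. Without control replicate 1 they were 1 and 2, beside 1.67% and 1.93%, and without control replicate 2 they were 1 and 1, beside 1.61% and 1.82%. With the replicate number as a block they were 4 lower and 3 higher, beside 5.93% and 5.95%. With limma-voom on the recovered reads they were 16 and 5, beside 10.1% and 7.74%. The remaining receptor and ligands of the family were hardly present: ERBB4, EGF, NRG1, NRG2 and NRG4 stayed at or below 0.708 FPKM in every library, and NRG3 was listed at 0.

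**Figure D3:**
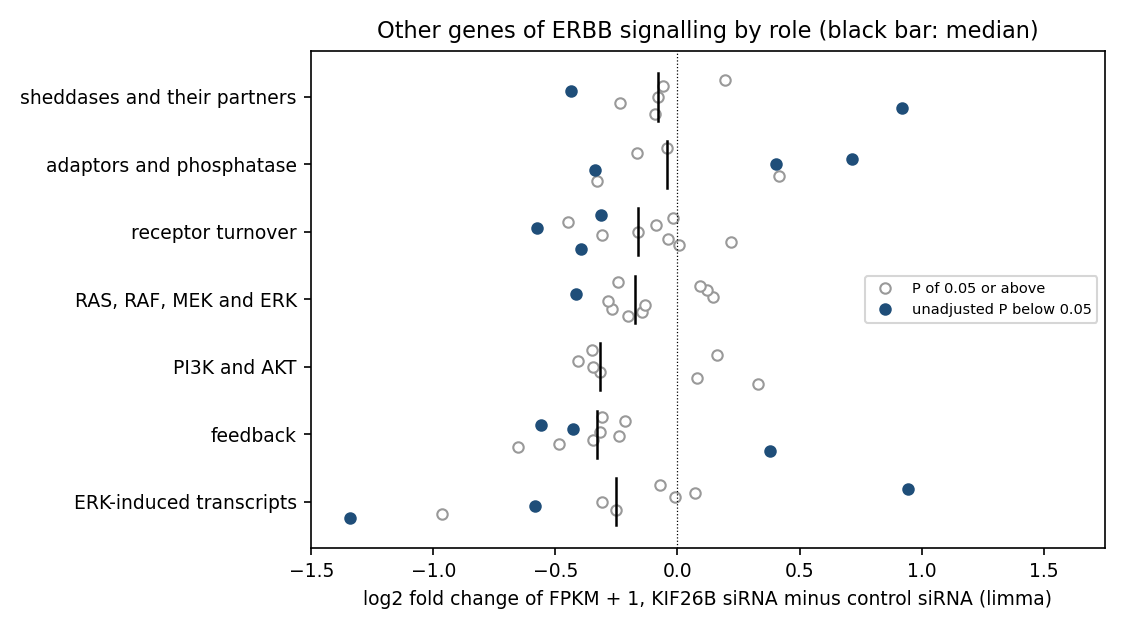
Log2 fold change of FPKM + 1 (KIF26B siRNA minus control siRNA by label) of the 61 tested genes of ERBB signalling outside the family, 1 point per gene by role; filled points have an unadjusted P below 0.05 in limma and black bars are group medians. The medians of all 7 groups lie below 0, from −0.33 for feedback genes to −0.04 for adaptors, against −0.01 for all genes tested. The points furthest to the right are MYC, ADAM15 and SHC1.

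By role, the ligand-releasing enzymes showed no common direction. ADAM17, the main sheddase of AREG, EREG and TGFA, was at 7.87 ± 0.285 and 6.53 ± 0.154 FPKM (SD, n = 2 each; log2 fold change −0.24, adjusted p = 0.377 from limma), whereas ADAM15 was at 14.4, 14.0, 23.1 and 33.2 FPKM across both controls and replicates 1 and 2 of the other group. Its log2 fold change was 0.92 (adjusted p = 0.248 from limma). FURIN, a proprotein convertase that activates ADAM proteases, was lower in both libraries labelled KIF26B siRNA, with a log2 fold change of −0.44. Of the adaptors, SHC1, which links receptors to GRB2 and RAS, was at 36.8 and 36.8 FPKM in the controls and 59.6 and 62.6 FPKM in the other group (log2 fold change 0.72, adjusted p = 0.242 from limma), with replicates close in both groups. PTPN11, the phosphatase SHP2, had a log2 fold change of 0.40, and GRB2 was at −0.34.

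Of the genes of receptor turnover, 9 of 11 had a log2 fold change below 0, with a median of −0.16 against −0.01 for all genes tested. At an unadjusted P below 0.05 from limma, 3 of the 11 were lower and 0 higher, beside 8.68% and 7.74% of all genes tested. Some of the others overlapped between groups. CBL, the ubiquitin ligase of EGFR, was at 14.8 and 14.3 FPKM in the controls and 11.0 and 10.7 FPKM in the other group (log2 fold change −0.39, adjusted p = 0.267 from limma). LRIG1, a membrane protein that lowers ERBB receptor levels, was at 2.04 and 1.98 FPKM against 1.12 and 0.913 FPKM (log2 fold change −0.58, adjusted p = 0.242 from limma). With limma-voom on the recovered reads, the log2 fold change of LRIG1 was −0.97. USP8, a deubiquitinase of sorted receptors, was the third turnover gene with an unadjusted P below 0.05. Of the feedback genes, 9 of 10 had a log2 fold change below 0, with a median of −0.33 against −0.01 for all genes tested. Only 2 of the 10 were lower and 1 was higher at an unadjusted P below 0.05 from limma. These counts stand beside 8.68% and 7.74% of all genes tested. Some of the other feedback genes overlapped between groups. SPRY1 and SPRED2, inhibitors of RAS signalling, had log2 fold changes of −0.56 and −0.43, and DUSP4, an ERK phosphatase, was the exception at 0.38. With limma-voom on the recovered reads, SPRY1 was at −0.89 and SPRED2 at −0.45.

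Among the ERK-induced transcripts, CCND1 (cyclin D1) was the 1 gene of the list past the thresholds of the study. It was at 358.0 and 361.1 FPKM in the controls and 106.8 and 187.0 FPKM in the libraries labelled KIF26B siRNA, and it fell by 1.34 on the log2 scale with a standard error of 0.30 (limma, unadjusted P = 0.0115 and adjusted p = 0.247). MYC ran the other way, from 78.5 and 78.5 FPKM to 146.1 and 157.9 FPKM (log2 fold change 0.94, adjusted p = 0.242 from limma). ETV5, an ETS factor, was at −0.58. Of the 9 ERK-induced transcripts, 7 had a log2 fold change below 0 and 2 above, with a median of −0.25 against −0.01 for all genes tested. At an unadjusted P below 0.05 from limma, 2 of the 9 were lower and 1 was higher, beside 8.68% and 7.74% of all genes tested. EGR1, FOS and ETV4 were at −0.97, −0.31 and −0.25, and FOSL1, IER3 and PHLDA1 were at −0.010, 0.073 and −0.072, all with an unadjusted P above 0.05. EGR1 overlapped between groups, at 74.1 and 78.6 FPKM in the controls and 79.3 and 18.5 FPKM in replicates 1 and 2 of the other group. With any 1 library left out, CCND1 and MYC kept an unadjusted P under 0.05, and CCND1 was at −0.94 without the library labelled KIF26B siRNA replicate 1, short of the threshold of −1. ADAM15, SHC1, CBL, LRIG1, FURIN, PTPN11, SPRY1, SPRED2 and ETV5 lost it without 1 or both of the control libraries, in fits that called 1.61% to 1.93% of all genes in a direction. Their fold changes moved little there, as in SHC1 (0.71 and 0.72) and PTPN11 (0.40 and 0.41).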

How the data were processed

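RNA of HCT116 cells was sequenced as 4 poly(A) libraries, grouped and numbered by their sample titles. Per the Methods, reads were aligned with HISAT2 v2.0.5. The submitters' processing notes add featureCounts 1.5.0-p3 and name hg38, where the Methods name hg19. Gene positions and promoters here are those of RefSeq on GRCh38.p14. The values the authors deposited are FPKM, 1 per gene and library, a unit read from the values, since the sources used here do not name it. Symbols came from GENCODE annotation of GRCh37 (56513 of 58735 identifiers matched), as did exon overlaps.

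The total each library was scaled by was inferred from the steps between values of single-exon genes, 89.0% to 89.6% of which then came out as whole reads. Reads of each gene were recovered at its annotated exon length (17367 genes) or else at the shortest length at which all 4 values became whole (within 0.0005 reads plus 1e-07 of the count), so they are estimates and, at the shortest length, lower limits. The 95% intervals are exact binomial ones for a ratio of read rates and cover counting error only. The authors' count model needs counts, so the FPKM were tested on a log scale. Main test: limma 3.58.1 (R 4.3.3) on log2(FPKM + 1) with no covariates, for genes averaging 1 FPKM or more, Benjamini–Hochberg adjustment over all 14523 genes, 2 residual and 2 prior degrees of freedom. With 2 libraries a group an exact permutation test cannot go below 0.333, so none was run. The functions were tested on simulated data. The family, the list of 68 signalling genes and the rules for named genes were chosen with earlier results of these data known. Named were the family, KIF26B, markers, pathway genes past the thresholds plus up to 2 per role with the largest change at P below 0.05, and the 5 nearest profiles to EREG. Of the genes this rule names, 1 is not reported here. ADAM17, GRB2, USP8, DUSP4, FOSL1, IER3, PHLDA1, EGR1, FOS, ETV4, EGFR-AS1, MIEN1, PGAP3 and the neighbours on chromosome 4 were named after their values were seen. Alternatives were the replicate block, other filters, a pseudocount of 0.1, median-of-ratios scaling, a variance trend, limma-voom on recovered reads, other thresholds and leaving out each library. Python 3.11.15, numpy 2.4.6, pandas 2.3.3, scipy 1.17.1 and matplotlib 3.10.9 were used.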

Additional observations from a re-analysis of the deposited data

How the results depend on the processing

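No gene of the family passed the thresholds of the study under any of the 7 other fits with all 4 libraries. With a library left out, 0 to 1 members were higher (EREG, at 1.08 without the library labelled KIF26B siRNA replicate 2) and 0 lower. At an unadjusted P below 0.05 alone, the main fit had 1 higher and 1 lower, beside 7.74% and 8.68% of all genes tested. Without a filter on low genes TGFA was also higher (unadjusted P = 0.0314 from limma). The members called in this way changed when a library was left out. At an adjusted p below 0.05 none passed with all libraries, beside 0.0% of all genes tested. Without the library labelled KIF26B siRNA replicate 1 some members did, in a fit that called genes widely, as given above. EREG kept an unadjusted P below 0.05 in every alternative run, with log2 fold changes of 0.75 to 1.08. Values that turned direction when 1 library was left out were those of ERBB2 (0.25 without KIF26B siRNA replicate 2 and −0.42 without replicate 1), ERRFI1 (−0.070 and 0.48), ERBB3 (0.038 and −0.092, and 0.011 without control replicate 2) and EPGN (0.26 and −0.045). Among all genes tested, 88 were lower and 118 higher. These counts were 52 and 69 with at least 1 FPKM in every library, 203 and 217 with a pseudocount of 0.1, and 204 and 194 with limma-voom. Leave-one-out counts ran from 123 to 223 lower and from 156 to 334 higher. Same-numbered libraries did not deviate together (correlation −0.0031 across genes), so the replicate block is a check only. With the block, 98 genes were lower and 135 higher, no member passed the thresholds, and signalling genes at an unadjusted P below 0.05 numbered 4 lower and 3 higher in place of 10 and 5, beside 5.93% and 5.95% of all genes in place of 8.68% and 7.74%. With limma-voom 16 were lower, beside 10.1% of all genes. Leave-one-out gave 1 to 26 lower and 1 to 9 higher. The median of the signalling list, −0.22, was −0.17 without a filter, −0.26 with a pseudocount of 0.1, −0.20 under median-of-ratios scaling, −0.26 with limma-voom, and −0.23 to −0.15 with a library left out. The cause of these moves was not tested. With a library left out, the lone library of a group is assumed to vary like the other group. Counting error is largest for EPGN, BTC and HBEGF. The annotated exon length was matched in ERBB2 only, so the reads of the other members are lower limits. In proportion, the fitted length was furthest below the annotated one in EPGN (907 against 3299 bases) and HBEGF (1509 against 2990 bases).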
